A study of Bos taurus with 6 samples.

Results

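Among the autosomal CpGs measured in bull sperm, cow monocytes and heifer fibroblasts, 22915 of 1542060 (1.49%) were unmethylated in fibroblasts and methylated in both other cell types. They were selected on the methylation measured here: the summed reads of the 2 libraries of each cell type had to give below 20% in fibroblasts, above 80% in sperm and above 80% in monocytes. A CpG entered the choice when it lay on chromosomes 1 to 29 and had a coverage of 5 to 500 reads in each of the 6 libraries. The same limits with the cell types exchanged gave 8939 CpGs (0.580%) unmethylated only in monocytes and 55942 (3.63%) unmethylated only in sperm.

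The libraries were prepared by reduced representation bisulfite sequencing (RRBS), in which the enzyme MspI cuts the DNA at CCGG sites, fragments of 40 to 290 bp are kept and bisulfite converts the unmethylated cytosines. Sperm came from commercial semen straws of 2 Holstein bulls, and monocytes were purified from the blood of 2 Holstein cows with CD14 beads. Fibroblasts were passaged primary cultures from ear skin biopsies of 2 adult Holstein heifers. Each library came from a different animal. Since only sperm came from males and only fibroblasts had been cultured, the cell type of sperm cannot be told apart from sex, nor that of fibroblasts from culture. The sperm and fibroblast libraries were amplified by 14 PCR cycles and the monocyte libraries by 12. The coverage summed over CpGs, in which a read counts for each CpG it covers, ranged from 45884839 to 78890776 per library. The fibroblast libraries were the deepest. The cell types could not be checked here against the promoters of their marker genes, for want of gene annotation on UMD3.1. All positions below are on the bovine UMD3.1 assembly.

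In mammals, DNA methyltransferases methylate the CpGs of most of the genome, while the CpG-dense islands at many promoters are kept free of methylation in almost every cell type. Enhancers and alternative promoters lose methylation in the lineages that use them, so that short unmethylated stretches set within methylated DNA differ between cell types. Fibroblasts, which build the collagen matrix of connective tissue, and monocytes, the circulating precursors of macrophages, come from separate lineages, and sperm acquires its methylation in the male germ line. Cells dividing in culture are also known to lose methylation gradually over broad CpG-poor domains.

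The methylation of the 22915 CpGs in the single libraries follows from their choice and is given as a description. In sperm replicate 1, the lowest CpG was at 20%, the median at 100% and the highest at 100%. In sperm replicate 2, the lowest was at 55.6%, the median at 100% and the highest at 100%. For monocytes, replicate 1 ran from 50.0% to 100% with a median of 93.3%, and replicate 2 from 20% to 100% with the same median. Both sperm libraries were thus closer to full methylation than both monocyte libraries. In fibroblast replicate 1, the values ran from 0% to 100% with a median of 7.14%. In fibroblast replicate 2, they ran from 0% to 62.5% with a median of 8.33%. The fibroblast libraries therefore lay far below the 4 others at nearly all of these CpGs, although few CpGs were fully free of methylation in both.

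**Figure D1:**
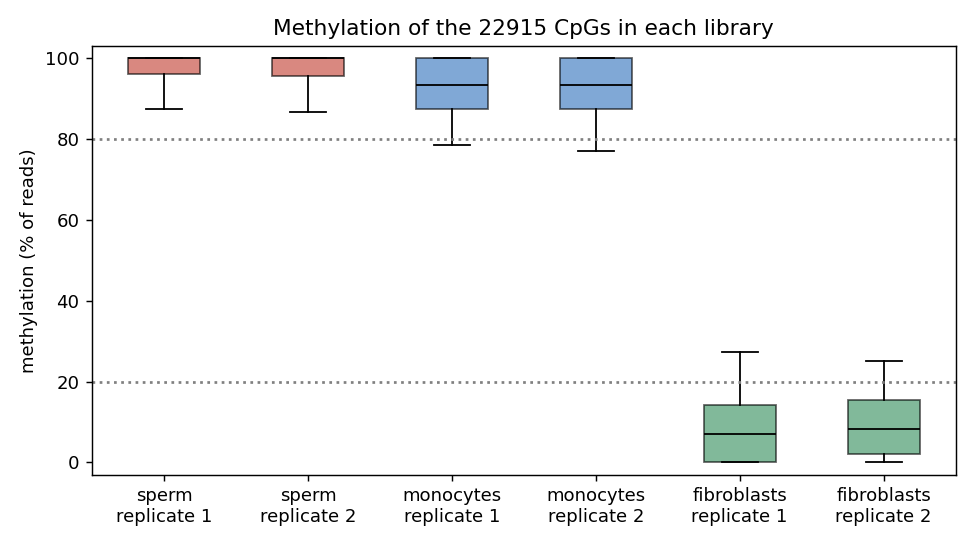
Methylation (% of reads, y axis) of the 22915 CpGs unmethylated only in fibroblasts in each of the 6 libraries (x axis). Boxes span the quartiles with the median as a line, whiskers reach the 5th and 95th percentiles, and dotted lines mark the limits of 20% and 80% that chose the CpGs. The medians were 100% in both sperm libraries, 93.3% in both monocyte libraries, while fibroblasts were at 7.14% and 8.33%.

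From the summed reads, 11590 of the CpGs (50.6%) were at 100% in sperm and 4076 (17.8%) were at 100% in monocytes. In fibroblasts, 2772 (12.1%) were at 0%. The lowest sperm or monocyte library lay at least 50 points above the highest fibroblast library at 22010 CpGs (96.1%), and the groups overlapped at 2. Each library passed its limit alone at 12963 CpGs (56.6%), the others passing through the sum of 2 libraries. Fibroblast replicate 1 was at or above 20% at 3285 CpGs and replicate 2 at 3358.

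The coverage of single CpGs sets how well these values are known. The median coverage of the members was 21 and 25 reads in the fibroblast, 17 and 14 in the monocyte and 14 and 17 in the sperm libraries, against 21, 25, 18, 15, 16 and 18 over all tested CpGs in the same order. The exact 95% counting interval lay wholly inside the limit for 9804 CpGs (42.8%) in fibroblasts, 16896 (73.7%) in sperm and 8852 (38.6%) in monocytes. All 3 intervals lay inside the limits at 3633 CpGs (15.9%). These intervals cover the counting error alone, since reads amplified by PCR are not independent molecules and 2 animals give little information on the spread between animals. The share of tested CpGs that met the rule was 1.34% among those covered by at least 10 reads in every library and 0.957% among those covered by at least 20. Of the 11440 CpGs covered by at least 50 reads in every library, 1 met it (0.0087%).

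The limits cut the 3 cell types at different places of their distributions. Just inside the fibroblast limit, 5589 CpGs lay at 15% to under 20%. Just outside it, 6148 CpGs that met both other limits lay at 20% to under 25%. Just inside the sperm limit, 362 lay at 80% to 85%, and 257 at 75% to 80% were outside. For monocytes, 3340 lay just inside and 2616 just outside. The fibroblast and monocyte limits therefore ran through well-filled bands, and the sperm limit through a sparse one.

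Of the 613060 CpGs above 80% in sperm and monocytes, 3.74% were below 20% in fibroblasts, 34.4% were at intermediate levels and 61.9% were above 80%. Where sperm and fibroblasts were above 80%, monocytes were below 20% at 2.21% of 404552 CpGs and intermediate at 4.94%. Where both somatic cell types were above 80%, sperm was below 20% at 11.99% of 466706 CpGs and intermediate at 7.62%. Fibroblasts thus had a large intermediate class at CpGs that were methylated elsewhere. In bins of 5 points, the fibroblast counts were 6843, 5093, 5390 and 5589 from 0% to 20%, and they rose further above the limit to 175905 in the highest bin. No gap in the counts therefore set the CpGs unmethylated in fibroblasts apart at the limit, although the lowest bin was fuller than the others below 20%.

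**Figure D2:**
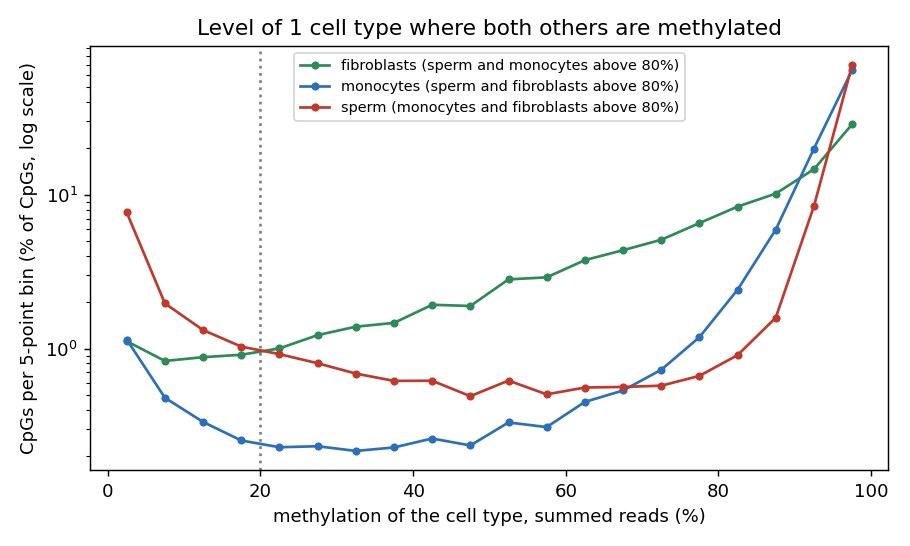
Share of CpGs (% of CpGs, y axis, log scale) by the methylation of 1 cell type (x axis, %, bins of 5 points), at CpGs above 80% in both other cell types. The fibroblast line rises above the limit of 20% (dotted), where monocytes and sperm have a trough, and 34.4% of the fibroblast values lie from 20% to 80% against 4.94% for monocytes and 7.62% for sperm.

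CpGs chosen on some of the libraries were also measured in the others. The limits applied to the 3 replicate 1 libraries chose 27501 CpGs, which were then measured in the 3 replicate 2 libraries. In replicate 2, their medians were 14.9% in fibroblasts, 92.9% in monocytes and 100% in sperm. The same 3 limits were met again by 12963 of them (47.1%), against 1.60% of all tested CpGs that met them in replicate 2. The limit was passed again by 58.5% in fibroblasts, 96.5% in sperm and 82.5% in monocytes, so that most of the losses were in fibroblasts. Above 50% in fibroblast replicate 2 were 2316 of the chosen CpGs. Choosing on replicate 2 and measuring in replicate 1 gave 24638 CpGs, of which 52.6% passed again and 64.2% passed in fibroblasts. The CpGs that passed again were the same 12963 in both directions, namely those at which each library passed its limit alone. The 2 shares therefore differ only through the number of CpGs chosen.

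In these replicate 2 libraries, Fisher's exact test (two-sided, p adjusted by Benjamini-Hochberg below 0.01, at least 25 points apart) called fibroblasts lower than sperm at 23061 of the 27501 CpGs (83.9%), where 9.51% of all 1580644 CpGs tested (X chromosome and unplaced sequences included) were called in this direction. Fibroblasts were called lower than monocytes at 18621 (67.7%), where 5.37% of all CpGs were called. Both shares were far above those of all CpGs. All CpGs include many that left no room for a lower level in fibroblasts, such as those low in every cell type. Part of the excess therefore follows from the choice. These tests compare single libraries, and neighbouring CpGs read on the same fragments are not independent.

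Over the summed reads of all libraries, a logistic regression with the same thresholds called all 22915 members lower in fibroblasts than in sperm (100%, with 16.2% of all CpGs called lower) and all 22915 lower in fibroblasts than in monocytes (100%, with 13.7%). The highest adjusted p of a member was 0.00118 against sperm and 0.00384 against monocytes by this logistic regression. The rule used both contrasts, so that these counts only account for the members.

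The 2 fibroblast cultures could be compared with each other at the members, although the limit of 20% leaves little room for a difference. Fisher's exact test called 14 members (0.0611%) between the 2 libraries, where 0.351% of all CpGs were called. Among the 641634 CpGs below 20% in fibroblasts, whatever their level elsewhere, 0.0302% were called. The 14 CpGs lay in 14 separate regions, and replicate 1, the shallower library, was the higher at 13 of them. The library with the higher level had the lower coverage at 13 of the 14, and since the summed reads had to give below 20%, this direction follows in part from the rule. At position 92179276 of chromosome 11, replicate 1 was at 100% over 10 reads and replicate 2 at 0% over 46 reads, with an adjusted p of 1.3e-07 by Fisher's exact test. At position 71001551 of chromosome 16, the only one with replicate 2 higher, the levels were 0% over 41 reads and 37.9% over 29 reads. Without adjustment, 7.81% of members had p below 0.05 between the cultures by the same exact test, against 7.60% of all tested CpGs. The median absolute difference between the cultures was 6.76 points at the members, 4.76 over all tested CpGs and 0 at the CpGs below 20% in fibroblasts.

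Position was not part of the rule beyond the chromosome. The members were joined into regions where each lay within 1000 bp of the next, which gave 10397 regions. A single member made up 6237 of these regions (27.2% of the members), 1770 regions held 2, and 2390 held at least 3. The regions of at least 3 contained 13138 members (57.3%), and 252 regions of at least 10 contained 3611 (15.8%). CpGs unmethylated only in sperm were more clustered, with 92.3% in regions of at least 3 and 3.85% single. For CpGs unmethylated only in monocytes, the shares were 73.9% and 14.4%. Of the 3 sets, the fibroblast set was the most scattered, which is a description and was not tested.

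Within regions, neighbouring members were a median of 25 bp apart and 80.5% of the gaps were at most 75 bp, the length of a read. Joined at 75 bp, the members formed 12833 runs. Many of the members of a region were therefore read on the same fragments. The regions of at least 3 members spanned a median of 145 bp, and the longest spanned 5349 bp. They held 19206 tested CpGs, of which members were 68.4%. Of the 6068 other tested CpGs in them, 4207 (69.3%) missed the fibroblast limit alone and 1324 (21.8%) the monocyte limit alone, whereas 156 (2.57%) missed the sperm limit alone. In fibroblasts, 2408 of them were at 20% to under 40% and 389 were above 80%. Most of the CpGs that interrupted a region were thus partly methylated in fibroblasts.

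Single members and members of large regions differed in level and in depth. The median level in fibroblasts was 13.2% for single members, 11.1% in regions of 2, 7.69% in regions of 3 to 9 and 4.81% in regions of at least 10. The median level in monocytes was 90.3%, 92.0%, 94.1% and 95.2% in the same order. Each library passed its limit alone at 37.3% of the single members and at 75.0% of the members of regions of at least 10. The median coverage rose from 15 to 19 reads over the same classes, and the share covered by at least 10 reads in every library from 45.4% to 63.7%. The part of depth in these differences was not tested. All 3 counting intervals lay inside the limits at 3.45% of the single members and at 31.8% of the members of the largest regions.

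Averaged over all tested CpGs of a region, members and others together, no region of at least 3 members had overlapping groups of libraries. In 2257 of these 2390 regions (94.4%), the lowest sperm or monocyte library lay at least 50 points above the highest fibroblast library, and the median of this gap was 75.1 points. The 2 fibroblast libraries differed by a median of 4.35 points per region, against 1.60 points for the sperm and 2.86 for the monocyte libraries. Replicate 2 was the higher in 1351 of the regions (56.5%). A difference of at least 10 points between the fibroblast libraries was found in 467 regions (19.5%), with replicate 2 higher in 274 and replicate 1 in 193. The differences between the cultures went in both directions. Members were 68.4% of the CpGs averaged, so that the separation of fibroblasts from the other libraries and the small size of these differences largely follow from the rule.

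The region with the most members lay on chromosome 5, at chr5:117093989-117099337, and held 83 members among 100 tested CpGs over 5349 bp. Averaged over its tested CpGs, methylation was 3.98% and 6.44% in fibroblasts, against 92.1% and 95.02% in monocytes and 98.6% and 95.9% in sperm. The means were 5.21% ± 1.74 in fibroblasts, 93.6% ± 2.07 in monocytes and 97.3% ± 1.89 in sperm (SD, n = 2). The members fell into 7 runs, separated by stretches with few or no tested CpGs. Some of these stretches held tested CpGs that were not members. Each of those CpGs was above the fibroblast limit in at least 1 fibroblast library. Another 83 CpGs in the same span had a coverage outside 5 to 500 in some library and took no part in the choice. In their summed reads, methylation was 7.41% of 1295 reads in fibroblasts, 96.2% of 598 in monocytes and 97.6% of 746 in sperm. The CpGs left out of the choice thus had levels similar to those of the members around them. They may share fragments with these members, so that this is no independent check. The 1 Mb window around this region, chr5:117000001-118000000, held 212 members (4.85% of its tested CpGs).

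**Figure D3:**
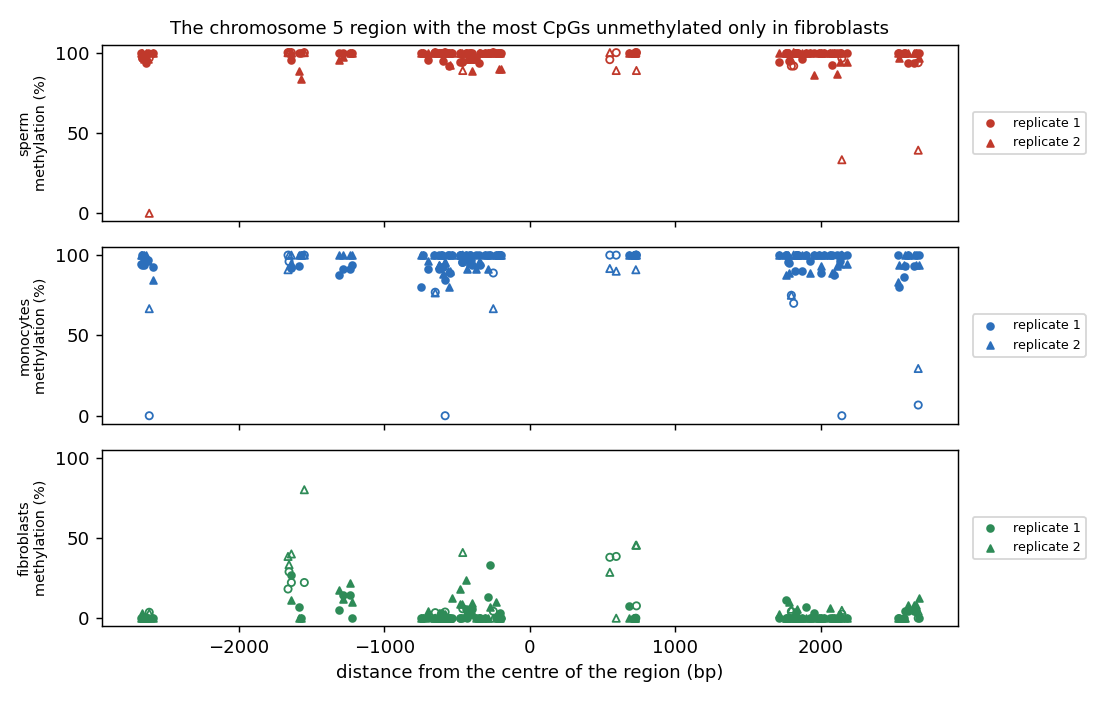
Methylation (%, y axis) of the 100 tested CpGs of the chromosome 5 region by their distance from its centre (x axis, bp), with 1 panel per cell type, circles for replicate 1 and triangles for replicate 2. Filled symbols are the 83 members and open symbols the other 17 CpGs. The fibroblast members lie mostly near 0%, though not in every run, and the sperm and monocyte members mostly near 100%.

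The next region by number of members, chr3:118645043-118648780, held 52 members among 87 tested CpGs. Its means were 10.6% and 21.3% in fibroblasts, against 89.5% and 90.4% in monocytes and 98.1% and 97.9% in sperm. Fibroblast replicate 2 was the higher here. Of the 35 other CpGs, 25 were at or above 20% in fibroblasts and 10 missed the monocyte limit. The region chr18:62469419-62472251 held 34 of 59, with 6.36% and 15.3% in fibroblasts, against 84.0% and 86.6% in monocytes and 97.5% and 96.6% in sperm. There, 15 of its 25 other CpGs missed the monocyte limit and 12 were at or above 20% in fibroblasts. Both regions were thus uneven through both cell types, by these counts more through fibroblasts in the former and more through monocytes in the latter.

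Compact regions were found on chromosomes 25 and 29. The region chr25:792534-793126 held 30 members among 34 tested CpGs in 593 bp, with 7.90% and 5.95% in fibroblasts, 96.6% in both monocyte libraries, and 97.9% and 97.7% in sperm. The region chr29:43710553-43711115 held 26 of 30, with 0.51% and 1.15% in fibroblasts, against 92.5% and 91.8% in monocytes and 97.7% and 96.7% in sperm. None of its CpGs exceeded 9.76% in fibroblasts, and its 4 other CpGs missed the monocyte limit. The region chr29:47419726-47420437 held 25 of 30, with 12.2% and 7.90% in fibroblasts, 89.2% and 92.1% in monocytes, and 98.1% in both sperm libraries.

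The region chr29:45017555-45017915 lay beside DNA with little methylation. It held 27 members among 32 tested CpGs in 361 bp, with 7.23% and 13.3% in fibroblasts, against 90.2% and 94.3% in monocytes and 94.0% and 95.1% in sperm. The 27 tested CpGs in the 1000 bp on each side were at 1.88% in fibroblasts, 23.0% in monocytes and 4.81% in sperm. Such surroundings were rare: 17 of the 252 regions of at least 10 members had a CpG below 20% in all 3 cell types within 1000 bp, and 75 of the 2390 of at least 3.

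In the remaining regions, as in most of those above, some of the tested CpGs were at or above 20% in fibroblasts. The region chr25:36324228-36326858 held 27 of 44, with 6.35% and 9.49% in fibroblasts, against 89.7% and 85.4% in monocytes and 98.5% and 97.2% in sperm. Of its 17 other CpGs, 8 were at or above 20% in fibroblasts and 9 missed the monocyte limit. The region chr5:120314799-120317247 held 28 of 67, with 30.05% and 24.9% in fibroblasts, against 90.5% and 90.7% in monocytes and 93.1% and 90.01% in sperm. The region chr14:21339116-21340338 held 27 of 51, with 35.5% and 38.8% in fibroblasts, against 92.9% and 92.0% in monocytes and 97.9% and 97.3% in sperm. In the last of these, 22 of the 24 other CpGs were at or above 20% in fibroblasts and the highest was at 100%. A region as defined here was therefore not always free of methylation from end to end. Of the regions in which each tested CpG was a member, the largest was chr3:117498910-117500109, with 20 CpGs over 1200 bp. It had 0.25% and 0.19% in fibroblasts, against 96.1% and 94.5% in monocytes and 98.9% and 97.4% in sperm.

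In the 252 regions of at least 10 members, the largest difference between the fibroblast cultures was at chr19:57761594-57761983, with 10 members of 23 tested CpGs, where replicate 1 was at 47.7% and replicate 2 at 26.5%. At chr18:8166520-8168697, with 11 of 53, replicate 1 was at 47.6% and replicate 2 at 28.7%, while monocytes were at 85.8% and 81.5%. The largest in the other direction was at chr7:13682878-13683840, with 12 of 22, where replicate 1 was at 13.3% and replicate 2 at 31.9%. These regions were singled out after their values were seen, and each value rests on 1 animal.

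CpGs that took no part in the choice, because their coverage was outside 5 to 500 in at least 1 library, were also measured in the spans of the 2390 regions. Their mean methylation was 19.6% and 22.9% in fibroblasts, against 88.2% and 88.1% in monocytes and 96.1% and 95.9% in sperm. Over 100 bp from the nearest member, the means were 28.4% and 33.1% in fibroblasts, against 85.04% and 85.3% in monocytes and 96.6% and 96.2% in sperm. Over the whole genome, such CpGs had 59.1% in both sperm libraries, 65.7% and 64.7% in monocytes, and 51.2% and 51.9% in fibroblasts. The untested CpGs inside the regions were thus low in fibroblasts alone, though less so with distance from a member. This is a description, since the spans were set by members chosen on these same libraries. CpGs close to a member may also share its fragments. In fibroblast replicate 1, 1177 of the 3916 untested CpGs covered inside the regions lay over 100 bp from a member.

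The surroundings of the members were measured in each library. The non-member CpGs lying more than 100 and up to 1000 bp from a member numbered 51552. Their mean methylation was 64.1% and 64.9% in fibroblasts, against 83.4% and 83.2% in monocytes and 91.2% and 90.8% in sperm. The fibroblast mean of 64.5% ± 0.58 (SD, n = 2) differed from that of the 4 other libraries by -22.7 points. The positions were set by members chosen on these same libraries, and 2 against 4 libraries cannot go below an exact permutation p of 0.0667, so that the difference is given as a description with no test. Over all 1519145 non-member CpGs, the fibroblast libraries were at 46.7% and 47.1%, the sperm libraries at 48.8% and 48.4%, and the monocyte libraries at 53.4% and 53.2%. The difference there was -4.03 points. Since a fragment may reach 290 bp, the surroundings were also taken beyond 300 bp, an alternative added after the data were seen, and the difference was -17.6 points.

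By distance, the fibroblast mean was 39.6% up to 50 bp from a member, 55.0% from there to 100 bp, then 56.7% to 200 bp, 65.5% to 500 bp and 67.8% to 1000 bp. Up to 50 bp, sperm was at 95.6% and monocytes were at 87.8%. Between 500 and 1000 bp, sperm was at 86.3% and monocytes were at 80.5%. The fibroblast level was therefore still below the others at 1000 bp, and over 50000 bp away it lay between sperm (32.5%) and monocytes (41.5%) at 37.1%. Around the CpGs unmethylated only in monocytes, the monocyte level rose from 19.6% up to 50 bp to 73.7% between 500 and 1000 bp, where fibroblasts were at 70.1%. Fibroblasts were also below the mean of the 4 other libraries beyond 1000 bp from the CpGs of either other set. Between 500 and 1000 bp from a CpG unmethylated only in monocytes, their difference from this mean was -9.68 points. Between 10000 and 50000 bp, the differences were -3.02 points around the members, -7.39 around the monocyte CpGs and -10.1 around the sperm CpGs. Far from the members, the lower fibroblast level was thus not particular to their surroundings. These are means over CpGs and were not tested.

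**Figure D4:**
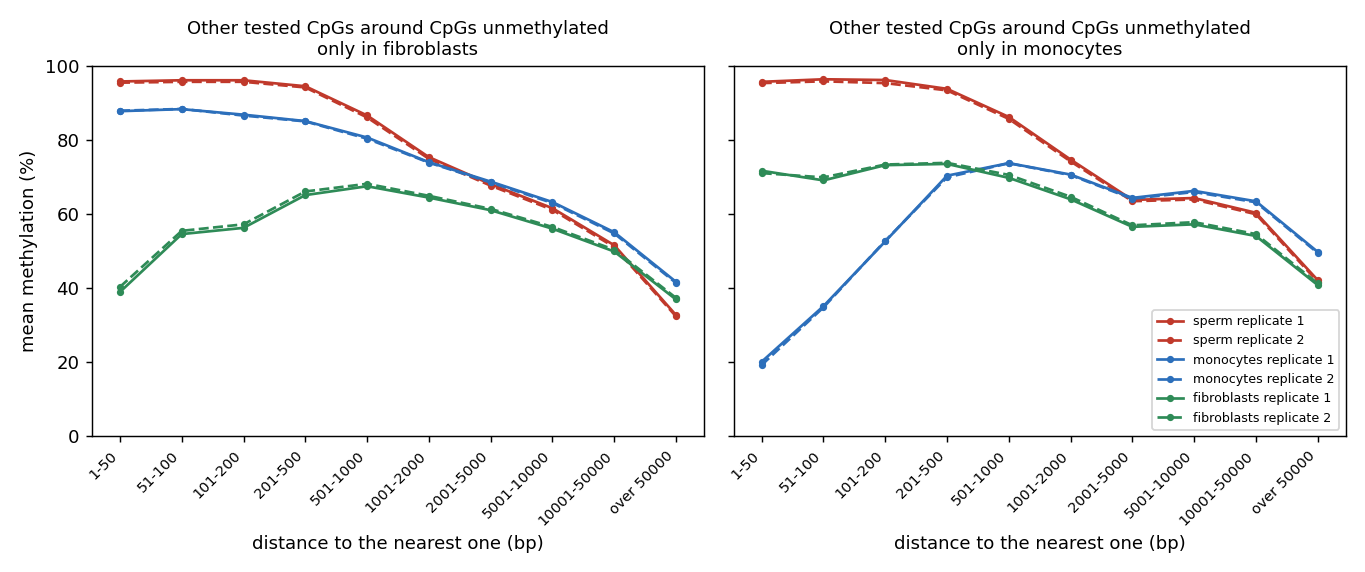
Mean methylation (%, y axis) of the other tested CpGs by distance to the nearest CpG unmethylated only in fibroblasts (left) or only in monocytes (right), in bins of bp (x axis), with 1 line per library, solid for replicate 1 and dashed for replicate 2. Fibroblasts start at 39.6% on the left and stay below the other libraries up to 50000 bp, while monocytes start at 19.6% on the right and exceed fibroblasts beyond 500 bp.

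The members lay in sparse parts of the measured genome. A median of 8 other tested CpGs lay within 1000 bp of a member, against 23 for all tested CpGs, 12 for CpGs above 80% in sperm and monocytes, 13 for CpGs unmethylated only in monocytes and 28 for those unmethylated only in sperm. No tested CpG lay within 1000 bp of 2.72% of the members, against 0.868% of all tested CpGs. A CpG below 20% in all 3 cell types, the state of most CpG islands, lay within 1000 bp of 2.64% of the members. The share was 41.9% of all tested CpGs and 2.17% of those above 80% in sperm and monocytes. Within 10000 bp, the shares were 25.6%, 59.98% and 31.3% in the same order. The members were therefore mostly outside commonly unmethylated DNA, like other CpGs methylated in sperm and monocytes.

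Among CpGs above 80% in sperm and monocytes, the share below 20% in fibroblasts fell with the number of tested neighbours within 1000 bp. The share was 5.12% with 0 to 4 neighbours, 4.27% with 5 to 9, 3.65% with 10 to 19, 2.67% with 20 to 39, 2.09% with 40 to 79 and 0.324% with 80 to 165, where 4 members were found. The mean fibroblast level of these CpGs rose from 73.9% in the sparsest class to 89.9% in the densest. With at least 10 reads in every library, the shares were 4.98%, 4.28%, 3.61%, 2.55%, 2.01% and 0.242%, which fell in the same order. As shares of all tested CpGs, members fell from 3.73% in the sparsest class to 0.0069% in the densest. CpGs above 80% in sperm and monocytes were 134223 of 184356 in the sparsest class and 1234 of 57830 in the densest. Part of this fall therefore follows from the rule. CpGs unmethylated only in monocytes were at 0.837%, 0.930%, 0.852%, 0.516%, 0.195% and 0.021% of all tested CpGs over the same classes. They were thus also scarce where tested CpGs were dense, but their share among CpGs methylated in both other cell types was not taken. CpGs unmethylated only in sperm went from 1.00% in the sparsest class to 4.04% in the densest. CpGs are not replicates, and no test was made.

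**Figure D5:**
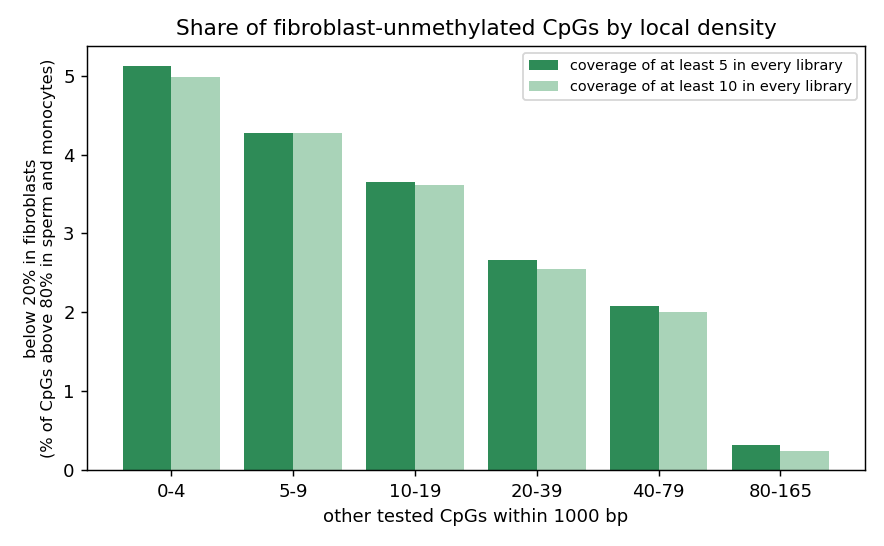
Share of CpGs below 20% in fibroblasts (y axis, % of CpGs above 80% in sperm and monocytes) by the number of other tested CpGs within 1000 bp (x axis), with a coverage of at least 5 (dark bars) or 10 (light bars) reads in every library. The dark bars fall from 5.12% to 0.324% and the light bars from 4.98% to 0.242%.

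Along the chromosomes, members made up 0.870% of the tested CpGs on chromosome 7, the lowest share, and 1.81% on chromosome 26, the highest. The last 10% of the length of the chromosomes held 40.0% of the members, against 33.5% of all tested CpGs and 46.4% of those above 80% in sperm and monocytes. Members were found in 1722 of 2529 windows of 1 Mb (68.1%). The 175 windows richest in members held 50% of them, whereas 268 windows were needed for 50% of the tested CpGs. The window with the most, chr21:70000001-71000000, held 229 members (3.65% of its tested CpGs). The members were thus spread over all autosomes with a few rich windows.

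The fibroblast CpGs were rarely next to those of the other cell types. Within 1000 bp of a CpG unmethylated only in monocytes lay 141 members (0.615%), against 1.99% of the remaining tested CpGs. Within 1000 bp of a CpG unmethylated only in sperm lay 97 members (0.423%), against 7.63%. Seen from the other sets, 156 of the monocyte CpGs (1.75%) and 271 of the sperm CpGs (0.484%) lay within 1000 bp of a member. Within 10000 bp, 11.3% of members were near a monocyte CpG, against 11.6% of the remaining CpGs, and 14.0% were near a sperm CpG, against 22.9%. A CpG above 80% in monocytes is less likely to lie beside one below 20% in monocytes, so that part of the scarcity within 1000 bp follows from the rule.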

How the data were processed

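The 6 RRBS libraries, 2 per cell type, follow the cell types of the labels. Per the submitters' processing notes, reads were handled with FastQC, Trim Galore 0.3.7, Bismark 0.14.3, Bowtie and methylKit on the UMD3.1 genome. The authors deposited, for each CpG, the coverage as unfiltered read counts of unique alignments. They gave methylation as a percent of these reads, and the deposited percentages were turned back into whole methylated reads, which gave back 100% of the percentages at a coverage of 5 to 500.

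The members and lists were chosen with earlier results of these data known. Cell types were compared with logistic regression on summed reads (likelihood-ratio test) and single libraries by Fisher's exact test, adjusted by Benjamini-Hochberg over 1580644 CpGs (adjusted p below 0.01, at least 25 points). The exact permutation test over library means planned for the surroundings of the members is not reported, because the members were chosen on the same libraries. The tests were tested on simulated data. The regions named are the 10 with the most members (ties by members per tested CpG, chromosome and start) and the largest with no other tested CpG. The alternatives were other limits, coverages and joining distances, other tests, a replicate block and leaving out each library. Replicates are different animals, 2 per cell type, so that p-values at single CpGs measure read counts more than animals.

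Genes, repeats, motifs and sequences at the CpGs were not analysed here, because no annotation or genome of UMD3.1 was used. Software was matplotlib 3.10.9, statsmodels 0.14.6, numba 0.67.0, pandas 2.3.3, scipy 1.17.1 and numpy 2.4.6 under Python 3.11.15.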

Additional observations from a re-analysis of the deposited data

Results flagged for a closer look

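CpGs outside the autosomes took no part in the choice. On the X chromosome, 203 of 28511 tested CpGs (0.712%) met the same limits, with a median of 11.6% in fibroblasts, 88.2% in monocytes and 100% in sperm. On the unplaced sequences, 213 of 10073 (2.11%) met them, with a median of 10.9% in fibroblasts, 91.1% in monocytes and 97.9% in sperm. The share of the autosomes, 1.49%, lay between the 2. Both counts are given because they come from data outside the main measurement. The share on the X chromosome cannot be compared by cell type alone, since sperm came from bulls and the somatic cells from females.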

How the results depend on the processing

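The number of CpGs unmethylated only in fibroblasts followed the limits and the depth. It was 7523 with limits of 10% and 90%, 44735 with 30% and 70%, 12769 with at least 10 reads in every library and 12963 where each library had to pass alone, with 3471, 20110, 6036 and 5889 regions. Leaving out 1 library gave 22982 to 28665 CpGs and 10565 to 13617 regions, the most without fibroblast replicate 2. The share in regions of at least 3 members was 55.0% with at least 10 reads, 53.7% and 63.2% with joining distances of 200 and 5000 bp, and 54.1% to 57.5% without 1 library.

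With at least 10 reads, all 12769 and 12769 members were called against sperm and monocytes, where 15.3% and 13.9% of all CpGs were called. Without 1 library, 22836 to 22881 of the 22915 were called against sperm (12.6% to 15.3% of all CpGs). Against monocytes, 22475 to 22754 were called (8.64% to 12.0% of all CpGs). The rule used both contrasts, so that these counts only account for the members. Between the fibroblast cultures, 73 members were called by logistic regression (10959 of all CpGs) and 83 at an adjusted p below 0.05 (13086), against 14. Choosing on replicate 2 gave 52.6% passing again in place of 47.1%, the same 12963 CpGs over fewer chosen. The causes were not tested. The difference in the surroundings of the members ranged from -24.0 to -17.6 points over 11 alternatives, 7 of them added after the data were seen.

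With the replicate number as a block, the Cochran-Mantel-Haenszel test called 22915 members against sperm and 22912 against monocytes. Of all CpGs, it called 14.8% and 12.2%. Fisher's exact test without the block gave the same counts of members, which largely follow from the rule. The numbers name different animals, and same-numbered libraries did not deviate together (correlations over CpGs of 0.0017 and -0.0041), so that they give no pairing. Of 74 values recomputed, 54 were counted as unchanged. This meant within the spread or within 1.5 times, except for the surroundings of the members, where keeping the sign was enough. The counts of the 22915 members called between cell types had little room to change, since the rule used both contrasts. The tally is therefore no measure of how stable the results are. Coverage of single CpGs and 2 animals per cell type limit all counts.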
